A study of Mus musculus with 15 samples.

Results

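The genes described are 6 members of the colony stimulating factor (CSF) system and its relatives, followed in RAW 264.7 cells cultured with or without RANKL. They are the ligand gene Csf1, the receptor genes Csf1r, Csf2ra, Csf2rb and Csf3r, and the receptor tyrosine kinase gene Mst1r. They were listed by name, and every probe set annotated to one of these symbols alone was kept. That gave 9 probe sets for 6 genes, out of 12422 probe sets and 8251 genes measured. Csf1r has 2 probe sets and Csf3r has 3, while the other genes have 1 each.

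RAW 264.7 is a transformed mouse line that resembles macrophages, and RANKL is the TNF family cytokine that drives such cells towards osteoclasts. Growth was in serum-containing alpha-MEM, per the labels, and the serum-free alphaMEM of days 0 and 3 carried either RANKL, at a dose the labels do not give, or none. The RANKL arrays comprised 1 of day 1 and 2 each of days 2, 4 and 5, and the control arrays comprised 1 each of days 1 and 5 and 2 each of days 2, 3 and 4. RANKL day 3 was not analysed here, and the labels call RANKL cells of days 4 and 5 multi-nuclear and all the other cells mononuclear. No CSF is named among the additions to the medium in either treatment. Whether 2 arrays of a group came from separate cultures is not stated, so the p-values measure only the spread between these arrays, which may be technical.

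CSF-1, the product of Csf1, keeps macrophages alive and dividing through Csf1r, a receptor tyrosine kinase, and in bone it acts beside RANKL on osteoclast precursors. GM-CSF binds the alpha chain made by Csf2ra and signals through the common beta chain made by Csf2rb, while G-CSF, the product of Csf3, binds Csf3r, best known from neutrophils. Mst1r, also called RON or Stk, is a receptor of the MET family that binds macrophage stimulating protein and is found on some tissue macrophages.

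Signals are array intensities in the units of the deposited table, and differences are on the log2(signal + 32) scale with the standard error (SE), as RANKL minus control or later minus earlier. Adjusted p-values are from limma with the Benjamini-Hochberg adjustment over all 12422 probe sets, and a probe set passes at 0.05. The median signal per array was 102 to 148, the 2% trimmed mean was 500 on every array, and the log2 values of replicate arrays correlated at 0.975 to 0.984. The manufacturer's probe sets for 4 yeast genes, which these cells lack, read 3.17 to 58.3 and give the range of an absent transcript. The macrophage identity was borne out by its markers, 11 of 12 of which had a median signal over 200, Mrc1 being the exception. Of 10 osteoclast markers 6 were measured, and their summed signal was 5598 to 31168 on RANKL arrays and 1064 to 6192 on control arrays, with Calcr and Itgb3 near the yeast range. The summed macrophage markers ranged from 34345 to 64570 on RANKL arrays and from 54644 to 63556 on control arrays. Of the 12 macrophage markers, 4 passed as lower with RANKL over the 4 days, Adgre1 at -0.76, Itgam at -1.08, Fcgr1 at -1.77 and C3ar1 at -1.43 on the log2 scale, and their part in the results below was not tested. None of 8 neutrophil markers had a median over 200, and their sums were 407 to 492 on RANKL arrays and 327 to 559.6 on control arrays. Among T cell, stromal and B cell markers only Cd4 and Col1a2 had a median over 200, of 6, 6 and 5 measured, and no marker of these 3 types passed. In RNA from a whole culture, fewer cells of a type and less RNA per cell cannot be told apart.

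Over days 1, 2, 4 and 5, RANKL changed 2 of the 9 probe sets. Mst1r rose, with a log2 difference of 1.18 ± 0.24 (adjusted p = 0.041), and 1 Csf3r probe set fell, with -0.84 ± 0.14 (adjusted p = 0.013). Of all probe sets, 1.09% passed in this comparison, 0.555% as higher and 0.539% as lower. The receptor of CSF-1 itself, Csf1r, differed by -0.10 ± 0.12 on its brighter probe set, 104354_at. The 95% interval of -0.36 to 0.16 lies within 1 log2 unit on either side of 0. It is for a mean over days of opposite sign, 0.50 at day 1 and -0.51 at day 2, and bounds no single day. The dimmer probe set, 161832_r_at, differed by -0.25 ± 0.15, with a 95% interval of -0.57 to 0.07. With culture time, Mst1r and 1 Csf3r probe set rose in RANKL cells, where 8.98% of all probe sets rose, and Csf2ra and the other 2 Csf3r probe sets rose in control cells, where 5.98% did.

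**Figure D1:**
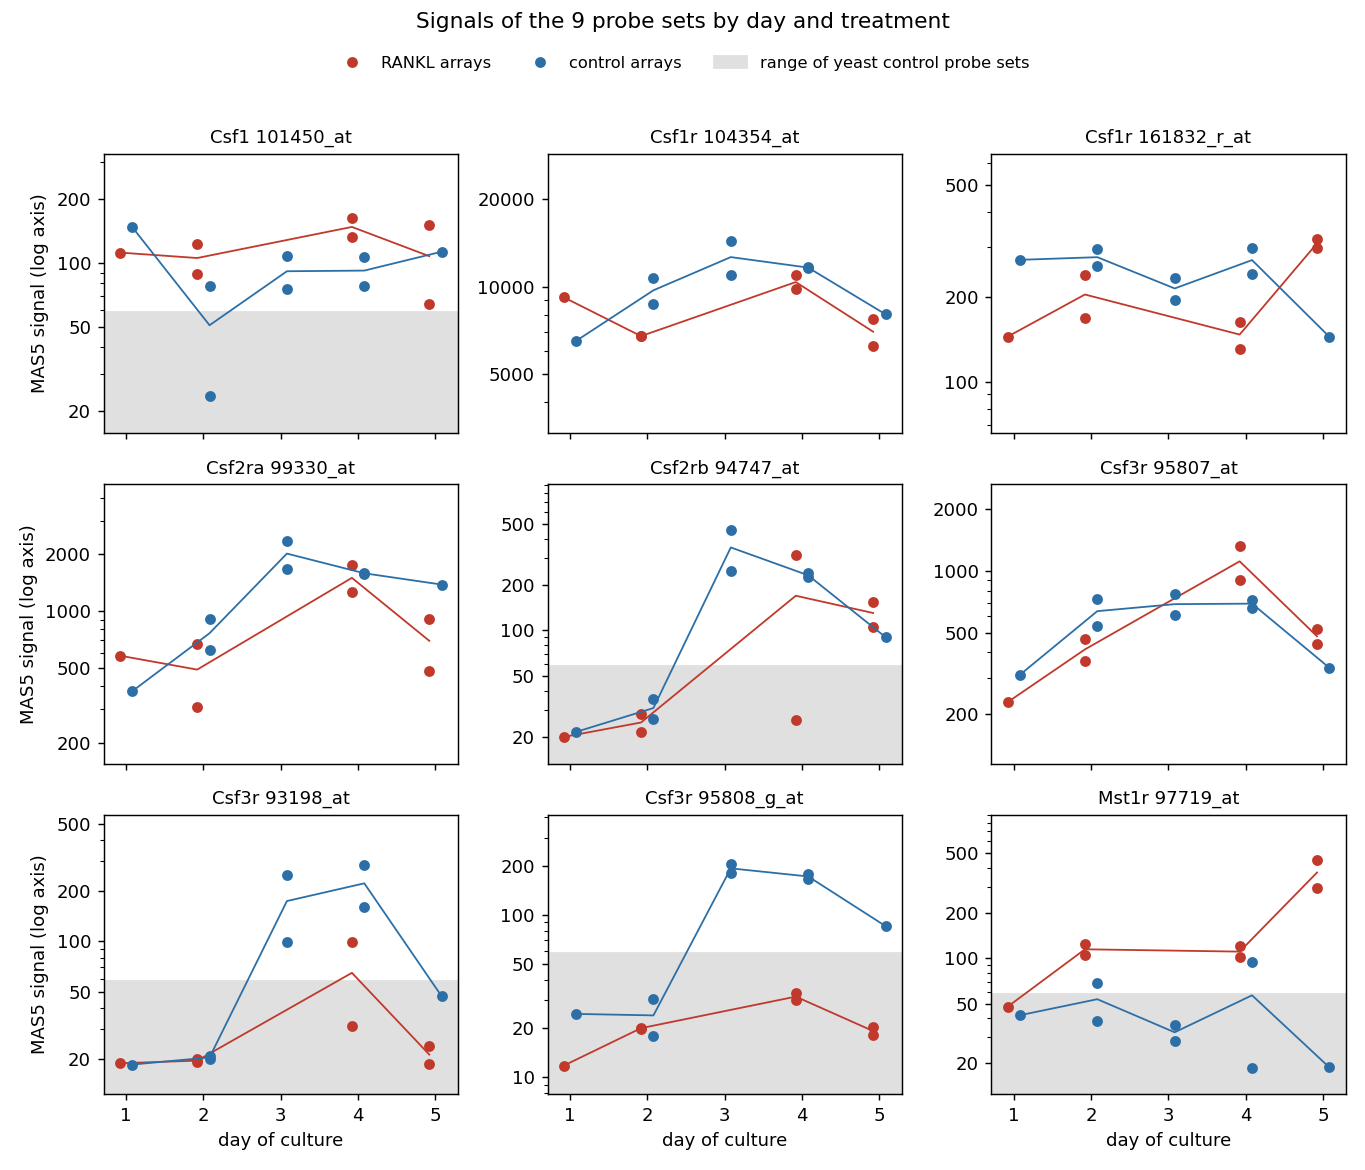
Signal of each of the 9 probe sets (vertical axis, array intensity on a log scale) against day of culture, with 1 point per array, RANKL and control arrays in separate colours and lines joining the means of each day. The RANKL line crosses day 3, which has no RANKL array. The grey band marks the yeast probe sets, 3.17 to 58.3. Mst1r separates the treatments at day 5, with 294 and 452 on RANKL arrays and 18.8 on the control array.

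Mst1r (97719_at) was near the yeast range in most control cells and clearly above it in RANKL cells from day 2 on. On RANKL arrays its signal was 47.7 at day 1, 106 and 124 at day 2, 120.3 and 102 at day 4 and 294 and 452 at day 5. On control arrays it was 41.9 at day 1, 68.7 and 38.4 at day 2, 36.2 and 28.4 at day 3, 95.0 and 18.7 at day 4 and 18.8 at day 5. All 6 RANKL arrays of days 2, 4 and 5 lay above all 5 control arrays of those days, an order that 0.789% of all probe sets showed. At day 1 the single arrays lay close together, and 6 of the 8 control values fell inside the yeast range. The highest control value, 95.0, was on replicate 1 of day 4, and replicate 2 of that day was the lowest.

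By day, the Mst1r difference was 0.11 ± 0.58 at day 1 (adjusted p = 1), 0.80 ± 0.41 at day 2 (adjusted p = 0.571), 0.83 ± 0.41 at day 4 (adjusted p = 0.653) and 2.97 ± 0.50 at day 5 (adjusted p = 0.0206). The day 5 difference was the only member call of that day, when 0.918% of all probe sets passed and 0.515% were higher. It was lost without RANKL day 5 replicate 2, at 2.68 with limma adjusted p = 0.102. The 1 control array of that day reads inside the yeast range, so the size depends on the added 32, and it ranged from 1.97 to 4.20 over the alternatives. Without the control array of day 5 that day drops out, and the mean difference over days 1, 2 and 4 was 0.58 with adjusted p = 0.558. For the difference over the 4 days, with each array's beta-actin ratio (3' over 5' probe set) as a covariate, the value was 1.32 with adjusted p = 0.0858, and over 23 alternatives it passed in 10. The ratio itself, a measure of RNA integrity, was 1.01 to 1.39 over the arrays. The summed osteoclast markers, 5598 to 31168 on RANKL arrays and 1064 to 6192 on control arrays, overlapped in range but reached higher with RANKL, and their part in the Mst1r difference was not tested. The effect of days 4 and 5 minus that of days 1 and 2 was 1.44 ± 0.48 and did not pass (adjusted p = 0.53).

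In RANKL cells Mst1r also rose with culture time, by 1.14 ± 0.32 (adjusted p = 0.0357) for days 4 and 5 minus days 1 and 2, though only the 2 arrays of day 5, of 4, lay above all 3 earlier ones. In all, 11.8% of probe sets had all 4 later RANKL arrays above the earlier ones, and none of these 9 did. Without the RANKL array of day 1, which leaves day 2 as the early time, that difference was 0.70 and no longer passed. In control cells the same contrast gave -0.30 ± 0.35 (adjusted p = 0.695), with a 95% interval of -1.08 to 0.47. Ordered by level, RANKL day 5 stood first, then RANKL days 2 and 4, whose values overlapped, and then control days 2 and 4 and RANKL day 1, which overlapped. Control days 1, 3 and 5 read inside the yeast range, as did replicate 2 of control day 4, so their order has no meaning.

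RefSeq lists 2 start sites for mouse Mst1r, 8114 bases apart, and both windows are shown because this gene was the member called at day 5 and its transcripts can begin at either place. Each window runs from 250 bases before to 50 after the start on the gene's strand, in build GRCm38.p6, and GGAA, the core of the site that ETS factors such as PU.1 bind, is in capitals on either strand (as TTCC on the other). The upstream window is chr9:107906639-107906938 and the downstream one chr9:107914753-107915052, both on the plus strand.
Mst1r start 1: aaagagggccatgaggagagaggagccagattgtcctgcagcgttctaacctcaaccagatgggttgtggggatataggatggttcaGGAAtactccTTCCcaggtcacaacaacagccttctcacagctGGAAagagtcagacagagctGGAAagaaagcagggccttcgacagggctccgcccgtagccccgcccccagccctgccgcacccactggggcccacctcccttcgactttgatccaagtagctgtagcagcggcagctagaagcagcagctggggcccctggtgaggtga
Mst1r start 2: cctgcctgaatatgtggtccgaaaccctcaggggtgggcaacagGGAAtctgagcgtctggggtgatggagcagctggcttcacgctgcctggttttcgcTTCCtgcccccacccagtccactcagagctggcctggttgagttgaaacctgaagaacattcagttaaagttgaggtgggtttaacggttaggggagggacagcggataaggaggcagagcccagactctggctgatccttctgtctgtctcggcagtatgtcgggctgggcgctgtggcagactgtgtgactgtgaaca
The upstream window holds 4 GGAA matches and the downstream window holds 2, against a median of 3 over all 32851 mouse windows, 96.0% of which hold at least 1. Neither holds GAGGAA, the purine-rich form favoured by PU.1, or TGANTCA, the AP-1 element bound by Fos and Jun. GAGGAA is present in 28.3% and TGANTCA in 7.81% of all windows. Motifs were searched on both strands, every GAGGAA is also a GGAA match, and the motifs and windows were chosen after the values were seen. A match is only a description of the letters, and which start the array probes reach was not analysed here.

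Csf1r encodes the receptor that carries the CSF-1 signal in macrophages and their precursors. Its signal on probe set 104354_at was 9191 at day 1, 6753 and 6763 at day 2, 9776 and 10956 at day 4 and 6261 and 7731 at day 5 with RANKL. Without RANKL it was 6504 at day 1, 8730.4 and 10691 at day 2, 10960.1 and 14299 at day 3, 11608 and 11633 at day 4 and 8031 at day 5. Every value was far above the yeast range, and the lowest control value, at day 1, lay among the lowest RANKL values. Every RANKL array was below the control arrays at day 2, as in 19.2% of all probe sets, at day 4, as in 19.8%, and at day 5, as in 26.9%. At day 1 the RANKL array was the higher.

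The Csf1r difference was -0.51 ± 0.20 (adjusted p = 0.403) at day 2, -0.17 ± 0.20 (adjusted p = 0.933) at day 4 and -0.21 ± 0.25 (adjusted p = 0.777) at day 5, and at day 1 it was 0.50 ± 0.29 (adjusted p = 0.903). No day passed, and over the 4 days 0 of 2 Csf1r probe sets passed. Of the 6 RANKL arrays of days 2, 4 and 5, 4 lay below all 5 control arrays of those days. Ordered by level, control day 3 stood highest at 12630 ± 2361 (SD, n = 2), with control day 4 inside its spread at 11620 ± 17.6 (SD, n = 2). RANKL day 4 followed at 10366 ± 834 and overlapped control day 2 at 9711 ± 1386 (SD, n = 2 each). RANKL day 5 at 6996 ± 1040 and RANKL day 2 at 6758 ± 7.33 (SD, n = 2 each) stood near the bottom and overlapped each other. The single arrays of RANKL day 1, control day 5 and control day 1 have no spread of their own. Csf1r did not pass for culture time either, at 0.11 ± 0.16 in RANKL cells (adjusted p = 0.755) and 0.28 ± 0.18 in control cells (adjusted p = 0.38).

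The other Csf1r probe set, 161832_r_at, was much dimmer and followed another course. It read 144 at day 1, 239.5 and 168 at day 2, 131 and 163 at day 4 and 322 and 297 at day 5 with RANKL. It read 271 at day 1, 295 and 258 at day 2, 233 and 195 at day 3, 242 and 299 at day 4 and 144 at day 5 in control cells. RANKL arrays lay below control arrays at day 2, as in 19.2% of all probe sets, and at day 4, as in 19.8%. They lay above the control array at day 5, where 49.2% of all probe sets had that order. At day 1, with 1 array of each treatment, the difference was -0.78. The correlation of this probe set with 104354_at over the 15 arrays was -0.17. Its differences, -0.40 ± 0.25 (adjusted p = 0.678) at day 2, -0.76 ± 0.25 (adjusted p = 0.398) at day 4 and 0.96 ± 0.30 (adjusted p = 0.179) at day 5, did not pass. At day 5 the Csf1r probe sets thus pointed in opposite directions.

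Csf1, the ligand of Csf1r, was dim in both treatments. Its RANKL signals were 112 at day 1, 88.6 and 122 at day 2, 132 and 163 at day 4 and 151 and 64.2 at day 5. Its control signals were 147 at day 1, 23.6 and 78.0 at day 2, 108 and 75.0 at day 3, 106 and 77.5 at day 4 and 113 at day 5. The values overlapped, with 4 of 6 RANKL arrays of days 2, 4 and 5 above the 5 control arrays, and the 2 RANKL arrays of day 5 lay far apart. The difference over 4 days was 0.22 ± 0.23 (adjusted p = 0.851), with a 95% interval of -0.29 to 0.74. By day it was 0.80 ± 0.40 at day 2 (adjusted p = 0.556), 0.54 ± 0.40 at day 4 (adjusted p = 0.817) and -0.13 ± 0.49 at day 5 (adjusted p = 0.944). At day 1, with 1 array of each treatment, the difference was -0.32. Csf1 did not pass in any of the 8 comparisons.

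Csf2ra, the chain that gives the GM-CSF receptor its ligand specificity, rose with culture time in control cells. Its signal with RANKL was 579.6 at day 1, 668 and 309 at day 2, 1746 and 1256 at day 4 and 908 and 481 at day 5. In control cells it was 375 at day 1, 621 and 904 at day 2, 1682 and 2356 at day 3, 1595 and 1579 at day 4 and 1382 at day 5. Of the RANKL arrays of days 4 and 5, 3 of 4 lay above all earlier RANKL arrays. All 5 control arrays of days 3 to 5 lay above all 3 of days 1 and 2, an order shared by 10.7% of all probe sets.

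For days 4 and 5 minus days 1 and 2, Csf2ra differed by 0.91 ± 0.29 in RANKL cells, which did not pass (adjusted p = 0.0549), and rose by 1.42 ± 0.31 (adjusted p = 0.015) in control cells. The late minus early RANKL effect, which is the difference between these values, was -0.52 ± 0.43 (adjusted p = 0.782) and did not pass. The control call was lost with the beta-actin ratio as a covariate (1.04, limma adjusted p = 0.271) and without the control array of day 1, which leaves day 2 as the early time (0.95, adjusted p = 0.131). Against control cells of the same day, RANKL cells differed by -0.68 ± 0.36 (adjusted p = 0.599) at day 2, -0.10 ± 0.36 (adjusted p = 0.991) at day 4 and -1.03 ± 0.44 (adjusted p = 0.327) at day 5. The day 5 RANKL arrays, 908 and 481, were both below the control array at 1382, as in 26.9% of all probe sets, while at day 4 the treatments overlapped. At day 1, with 1 array of each treatment, the RANKL array was the higher, by 0.59. Over the 4 days the difference was -0.30 ± 0.21 (adjusted p = 0.706) and did not pass.

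Csf2rb, the signalling chain shared by the receptors of GM-CSF, IL-3 and IL-5, was inside the yeast range on every array of days 1 and 2 and above it on most later ones. It read 20.0 at day 1, 28.1 and 21.6 at day 2, 312 and 25.7 at day 4 and 154 and 106 at day 5 in RANKL cells. It read 21.6 at day 1, 26.2 and 35.7 at day 2, 246 and 454 at day 3, 223 and 237 at day 4 and 90.3 at day 5 in control cells. Of the RANKL arrays of days 4 and 5, 3 of 4 exceeded the earlier RANKL arrays. All 5 control arrays of days 3 to 5 exceeded the 3 of days 1 and 2, as in 10.7% of all probe sets. RANKL replicate 2 of day 4 stayed at 25.7 beside 312 on replicate 1. Culture time gave 1.47 ± 0.50 (adjusted p = 0.0692) in RANKL cells and 1.63 ± 0.54 (adjusted p = 0.0825) in control cells. Without RANKL day 4 replicate 2 the RANKL value was 2.11. It ranged from 0.82 to 2.11 when each array was left out in turn, and it passed in 2 of 23 alternatives. The RANKL difference over 4 days was -0.17 ± 0.37 (adjusted p = 0.94), and at day 4, where the RANKL replicates parted, it was -0.89 ± 0.63 (adjusted p = 0.799).

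Csf2rb has a neighbour on chromosome 15, Csf2rb2, which in mice makes a beta chain for the IL-3 receptor alone and is closely similar in sequence. It was therefore set beside Csf2rb. Csf2rb2 (103210_at) read 163 at day 1, 370.3 and 284 at day 2, 584 and 424 at day 4 and 643 and 628 at day 5 in RANKL cells. It read 144 at day 1, 164 and 229 at day 2, 332 and 362 at day 3, 389.7 and 393 at day 4 and 200.2 at day 5 in control cells. Both RANKL arrays lay above the control arrays at each of days 2, 4 and 5, orders that 18.8%, 17.5% and 49.2% of all probe sets showed on those days in turn. Csf2rb2 rose with RANKL over the 4 days, by 0.66 ± 0.14 (adjusted p = 0.0434), and at day 5, which has 1 control array, by 1.52 ± 0.29 (adjusted p = 0.0343). With culture time it rose in RANKL cells, by 1.17 ± 0.18 (adjusted p = 0.00218), and differed by 0.65 ± 0.20 (adjusted p = 0.0624) in control cells. A second Csf2rb2 probe set (161544_r_at) read at most 22.1 on any array, inside the yeast range, and differed by -0.01 ± 0.13 (adjusted p = 0.992) over the 4 days. A probe set annotated to both genes (94748_g_at) read 115 to 200 on the arrays of days 1 and 2, above the yeast range. It differed by -0.03 ± 0.14 (adjusted p = 0.974) for RANKL over the 4 days. With culture time it rose in RANKL cells by 0.84 ± 0.19 (adjusted p = 0.0133) and in control cells by 0.90 ± 0.21 (adjusted p = 0.0203). How far each probe set reads its neighbour's transcript was not tested.

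**Figure D2:**
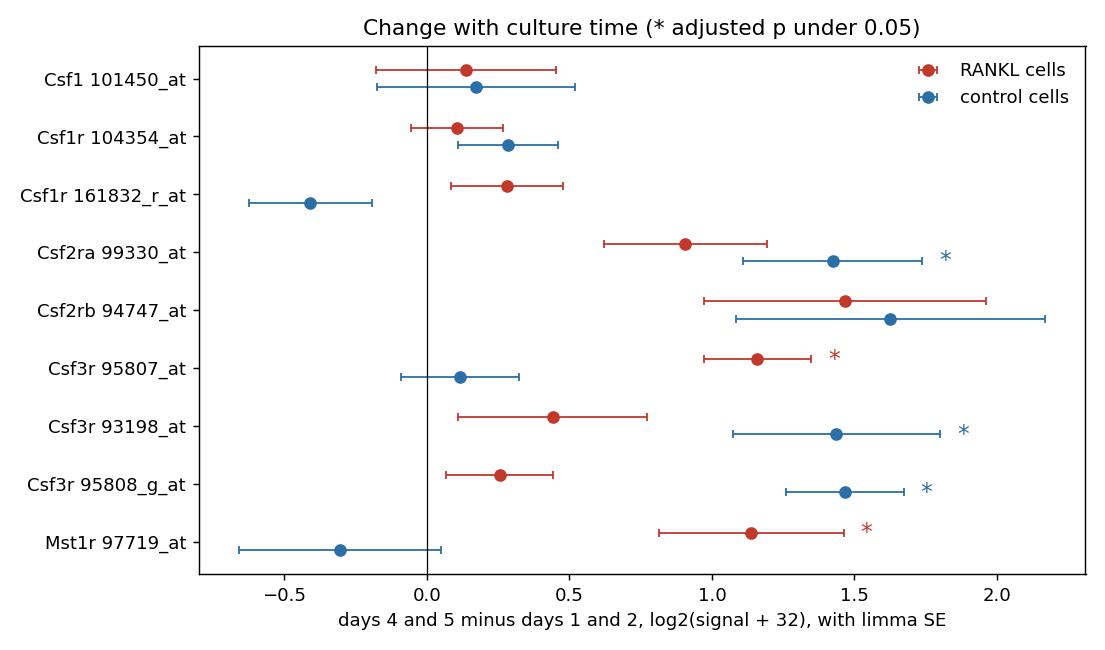
Difference of days 4 and 5 minus days 1 and 2 on the log2(signal + 32) scale (horizontal axis) for each of the 9 probe sets, in RANKL cells (red) and control cells (blue), with bars for the limma SE and asterisks for adjusted p under 0.05. In RANKL cells the asterisks mark 95807_at of Csf3r, at 1.16, and Mst1r, at 1.14, and in control cells Csf2ra, at 1.42, and the other Csf3r probe sets.

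Csf3r, the receptor of G-CSF, was read by 3 probe sets that did not share a course. The brightest, 95807_at, gave 228 at day 1, 363 and 464 at day 2, 902 and 1326 at day 4 and 519 and 439.6 at day 5 with RANKL. It gave 311 at day 1, 539 and 732 at day 2, 769 and 607 at day 3, 661 and 723 at day 4 and 336 at day 5 without RANKL. RANKL arrays lay below control arrays at day 2, as in 19.2% of all probe sets. They lay above them at day 4, as in 17.5%, and at day 5, as in 49.2%. The highest RANKL value was on replicate 2 of day 4.

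On 95807_at, culture time in RANKL cells gave a rise of 1.16 ± 0.19 (adjusted p = 0.00256), 1 of 2 member calls in that comparison. The rise was highest at day 4 and had mostly gone by day 5. The mean log2 value with RANKL was 8.79 at day 2, 10.14 at day 4 and 8.99 at day 5. Of the RANKL arrays of days 4 and 5, 3 of 4 lay above all earlier RANKL arrays. In control cells the same probe set gave 0.12 ± 0.21 (adjusted p = 0.817). Against control cells of the same day it differed by -0.58 ± 0.24 (adjusted p = 0.437) at day 2, 0.64 ± 0.24 (adjusted p = 0.484) at day 4 and 0.47 ± 0.29 (adjusted p = 0.518) at day 5. The late minus early RANKL effect was 1.04 ± 0.28 (adjusted p = 0.386), so the turn from lower to higher did not pass the test made of it.

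The other probe sets of Csf3r followed another course. 95808_g_at read 11.8 at day 1, 20.2 and 19.9 at day 2, 32.9 and 29.9 at day 4 and 20.3 and 18.2 at day 5 in RANKL cells, values inside the yeast range. In control cells it read 24.5 at day 1, 17.8 and 30.2 at day 2, 207 and 180.1 at day 3, 178 and 167 at day 4 and 85.4 at day 5, which left the range from day 3 on. 93198_at read 18.9 at day 1, 20.0 and 19.2 at day 2, 98.7 and 31.3 at day 4 and 18.8 and 23.8 at day 5 with RANKL and 18.6 at day 1, 20.8 and 20.2 at day 2, 99.0 and 248 at day 3, 282 and 159.9 at day 4 and 47.2 at day 5 without. Both stood higher on all 5 control arrays of days 3 to 5 than on the 3 of days 1 and 2, as in 10.7% of all probe sets. On 93198_at the day 4 RANKL replicates parted as they did for Csf2rb.

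With RANKL, 95808_g_at was lower at day 4, with a log2 difference of -1.69 ± 0.24 (adjusted p = 0.0122), when 0.266% of all probe sets passed and 0.0483% were lower. The RANKL signals lie inside the yeast range, so the size of this difference depends on the added 32, and it ranged from -2.42 to -1.05 over the alternatives. At day 5 the difference was -1.20 ± 0.29 (adjusted p = 0.0821) and at day 2, before the control signal left the yeast range, it was -0.10 ± 0.24 (adjusted p = 0.956). The difference over 4 days no longer passed with the beta-actin ratio as a covariate (-0.87, limma adjusted p = 0.0688). Without the control array of day 5 that day drops out, and the mean over days 1, 2 and 4 was -0.72 (limma adjusted p = 0.144). On 93198_at the RANKL difference at day 4 was -1.43 ± 0.42 (adjusted p = 0.319). With culture time in RANKL cells, 95808_g_at differed by 0.26 ± 0.19 (adjusted p = 0.447) and 93198_at by 0.44 ± 0.33 (adjusted p = 0.456). In control cells 95808_g_at rose by 1.47 ± 0.21 (adjusted p = 0.00203) and 93198_at by 1.44 ± 0.36 (adjusted p = 0.0273). With the beta-actin ratio as a covariate the 93198_at value was 0.62 and no longer passed (limma adjusted p = 0.53). Over the 15 arrays these probe sets correlated with each other at 0.89, and with 95807_at at 0.35 and 0.41, values that share arrays and groups. One direction for Csf3r as a gene therefore cannot be given. Neutrophil markers, with sums of 407 to 492 on RANKL arrays and 327 to 559.6 on control arrays, did not pass in any comparison.

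The Csf3r and Csf2ra windows are shown because these genes changed with culture time and because Csf3r holds one of the richer sets of ETS cores. The Csf3r window is chr4:126024409-126024708 on the plus strand and the Csf2ra window is chr19:61228369-61228668 on the minus strand, both from RefSeq in build GRCm38.p6, with GGAA and TTCC in capitals.
Csf3r: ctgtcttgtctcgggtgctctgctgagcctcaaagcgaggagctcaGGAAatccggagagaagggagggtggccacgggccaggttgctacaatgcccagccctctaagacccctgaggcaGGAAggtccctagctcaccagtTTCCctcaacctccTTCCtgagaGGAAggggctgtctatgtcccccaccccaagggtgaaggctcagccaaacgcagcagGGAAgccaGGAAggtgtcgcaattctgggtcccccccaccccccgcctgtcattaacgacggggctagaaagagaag
Csf2ra: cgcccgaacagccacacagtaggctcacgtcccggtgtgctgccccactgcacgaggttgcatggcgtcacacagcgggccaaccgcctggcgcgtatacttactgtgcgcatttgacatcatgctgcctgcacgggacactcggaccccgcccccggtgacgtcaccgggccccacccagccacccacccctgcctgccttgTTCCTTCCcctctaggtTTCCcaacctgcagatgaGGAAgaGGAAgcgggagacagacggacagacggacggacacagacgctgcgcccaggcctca
Csf3r holds 7 GGAA matches, a number that 8.02% of windows reach, with GAGGAA once. Csf2ra holds 5, with GAGGAA at 2 places, which 4.82% of windows reach. Neither window holds TGANTCA. The Csf3r window was chosen partly for its GGAA count, so the share of windows that reach that count is no support. Windows of Csf1, Csf1r and Csf2rb were not analysed here.

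**Figure D3:**
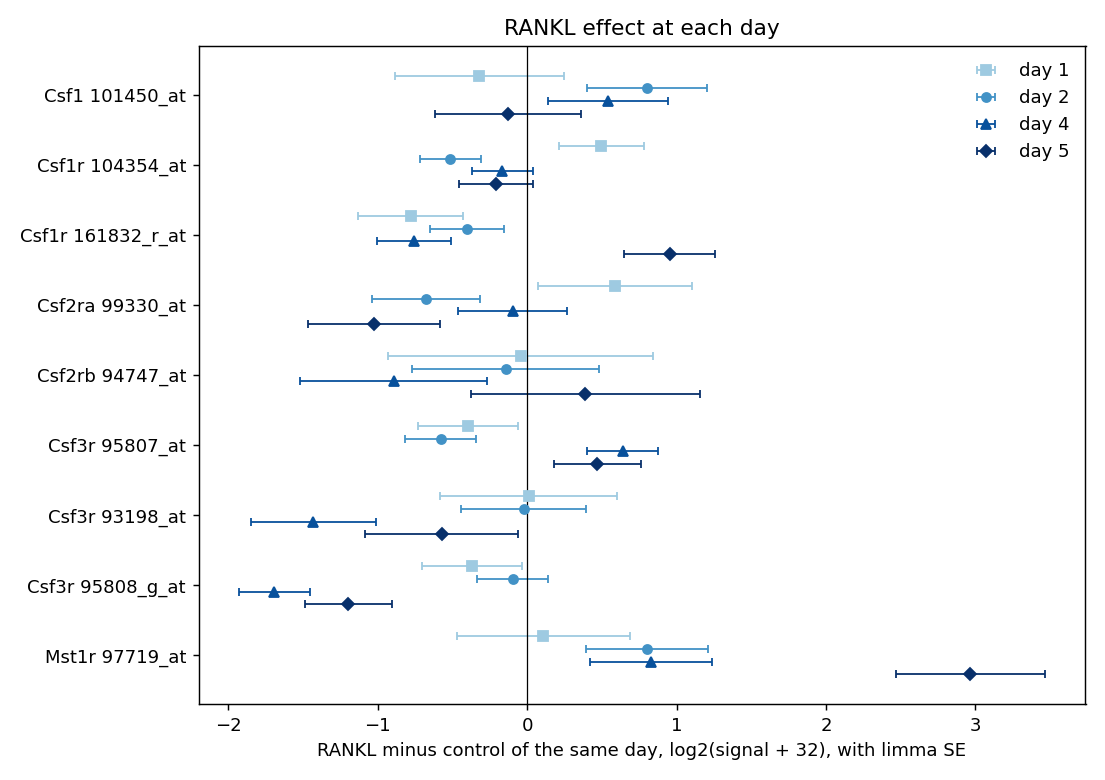
RANKL minus control difference on the log2(signal + 32) scale (horizontal axis) for each of the 9 probe sets at days 1, 2, 4 and 5, with bars for the limma SE and darker symbols for later days. The points farthest from 0 are Mst1r at day 5, at 2.97, and the Csf3r probe set 95808_g_at at day 4, at -1.69, the calls at single days.

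Counted by comparison, RANKL gave calls for 0 of 9 probe sets at day 1, when 0% of all probe sets passed, and for 0 of 9 at day 2, when 0.853% passed, by limma. At an unadjusted p under 0.05 the counts were 1 of 9 at day 1, beside 5.86% of all probe sets, and 2 of 9 at day 2, beside 10.1%. By adjusted p the count was 1 of 9 at day 4, beside 0.266% of all probe sets. At day 5 it was also 1 of 9, beside 0.918%, and each is named above. At an unadjusted p under 0.05 by limma it was 4 of 9 at day 4 and 4 of 9 at day 5. Of all 12422 probe sets, 1010 had such a p at day 4 and 1765 at day 5. At day 4 the member probe sets with such a p were 161832_r_at of Csf1r and all those of Csf3r. The Csf3r differences had opposite signs, at 0.64 for 95807_at, -1.43 for 93198_at and -1.69 for 95808_g_at. At day 5 the member probe sets were 161832_r_at, Csf2ra, 95808_g_at and Mst1r. These counts are of probe sets and not of genes. The late minus early effect passed for 0 of 9, beside 0.0403% of all probe sets. For that effect 4 of 9 had an unadjusted p under 0.05 by limma, beside 8.03% of all probe sets. Those 4 include 95807_at and 95808_g_at of Csf3r, with opposite signs, at 1.04 and -1.21. Culture time raised 2 of 9 in RANKL cells, where 8.98% of all probe sets rose, and 3 of 9 in control cells, where 5.98% did. The calls in control cells were Csf2ra and 2 probe sets of Csf3r. No member fell with culture time, beside 5.82% of all probe sets in RANKL cells and 4.87% in control cells. The RANKL and culture time comparisons use the same late and early arrays, so their values are given side by side and not as separate support.

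Correlations between members over the 15 arrays, which share days and treatments, are given as descriptions. Csf2ra correlated with Csf2rb at 0.79 and with 93198_at at 0.80, and Csf2rb with 93198_at at 0.84. The brightest Csf3r probe set, 95807_at, correlated with Csf2ra at 0.59 and with Csf2rb at 0.40. Csf1r (104354_at) correlated with Csf2ra at 0.77 and with Mst1r at -0.48. Among 5635 brighter probe sets of single genes, those most like Mst1r were Scin, an actin-severing protein, at r = 0.92, Pde4dip, a Golgi and centrosome protein, at 0.91 and Prnp, the prion protein, at 0.91. Csf1r was most like Cpt1a, the carnitine palmitoyltransferase of fatty acid oxidation (0.95), Napsa, an aspartic protease (0.93), and Fuca1, a lysosomal fucosidase (0.91). Csf2ra was most like Sirpa, the receptor of CD47 (0.97), Ncf1, a subunit of the phagocyte NADPH oxidase (0.97), and Tnfrsf1b, a TNF receptor (0.96). Csf2rb was most like Unc119 (0.94), a lipid-binding trafficking protein. Csf3r on 95807_at was most like Nptn (0.89), an adhesion protein. The dim Csf1 was most like Krt81 (0.83), a hair keratin. Each r is over 15 arrays.

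The wider pathway was taken from 7 lists of 96 genes, of which 79 were measured. The lists were chosen with earlier results of these data known, so counts of calls in them are not separate support. RANKL over the 4 days raised 5 and lowered 2 of them, where 0.555% of all probe sets rose and 0.539% fell. Each listed gene is read by its brightest probe set, while these shares count every probe set, dim ones included, so the units differ. The median over all genes in that comparison was 0.00 on the log2 scale. None of 8 ligands passed, with a median of -0.01. Of 10 related receptors 1 rose, Csf2rb2, with a list median of 0.05. None of 22 signalling genes below the receptors passed, with a median of -0.05, and none of 4 shedding proteases and partners did, with a median of 0.01.

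Among 11 brakes on receptor signalling 1 fell, with a list median of -0.16. It was Dusp6, the phosphatase that switches off ERK, which read 178 at day 1, 59.7 and 60.7 at day 2, 1057 and 344 at day 4 and 433 and 159 at day 5 in RANKL cells. In control cells it read 113 at day 1, 417 and 518 at day 2, 1797 and 1908 at day 3, 1485 and 1616 at day 4 and 1142 at day 5. RANKL arrays were below the control arrays at day 2, as in 19.2% of all probe sets, and at day 4, as in 19.8%. The same held at day 5, as in 26.9%. The difference over 4 days was -1.30 ± 0.27 (adjusted p = 0.0429). Dusp6 was named for the size of that difference, so the order of its arrays is not separate support.

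Among 13 transcription factors that bind the Csf1r gene or define macrophages, 2 rose and 1 fell, with a list median of -0.32. Egr2, a zinc finger factor of macrophages, read 444 at day 1, 614 and 514 at day 2, 1732 and 2484 at day 4 and 971 and 740.4 at day 5 in RANKL cells. In control cells it read 461 at day 1, 492 and 585 at day 2, 425 and 367 at day 3, 464 and 432 at day 4 and 286 at day 5. Its RANKL arrays stood above the control arrays of the same day at day 4, as in 17.5% of all probe sets, and at day 5, as in 49.2%. The Egr2 difference was 0.90 ± 0.13 (adjusted p = 0.00618) over the 4 days and 1.79 ± 0.26 (adjusted p = 0.0453) for late minus early. Irf8, a factor of monocyte identity that restrains osteoclast formation, read 419.5 at day 1, 206 and 107 at day 2, 1066 and 784 at day 4 and 399 and 137 at day 5 in RANKL cells. In control cells it read 281 at day 1, 684 and 1068 at day 2, 1689 and 1925 at day 3, 1667 and 1504 at day 4 and 1454 at day 5. RANKL arrays were below the control arrays on days 2, 4 and 5, orders that 19.2%, 19.8% and 26.9% of all probe sets showed in turn. Irf8 fell, with a difference of -1.25 ± 0.23 (adjusted p = 0.0255). Egr2 and Irf8 were named for the size of their difference over the 4 days, so these orders are not separate support. Fos, an AP-1 subunit that osteoclasts require, rose by 0.68 ± 0.14 (adjusted p = 0.047) and was chosen after its value was seen.

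Among 11 genes that CSF signalling induces 2 rose, with a list median of -0.24. They were Myc, a growth regulator, at 1.67 ± 0.31 (adjusted p = 0.0255) and Plau, the urokinase protease, at 1.20 ± 0.20 (adjusted p = 0.0116). Neither kept the same sign on every day. At day 1, with 1 array of each treatment, Myc read 377 with RANKL and 730 without, and Plau 643 and 112. At day 2 Plau read 268 and 280 with RANKL, below 348 and 569 without, as in 19.2% of all probe sets. Myc was higher on RANKL arrays at days 2, 4 and 5, as in 18.8%, 17.5% and 49.2%, and Plau at days 4 and 5. The control Myc values of days 3 and 4, 18.4 to 25.1, lay inside the yeast range. With culture time, 17 of the 79 genes were higher and 2 lower in RANKL cells, where 8.98% of all probe sets rose and 5.82% fell. In control cells 16 were higher and 3 lower, where 5.98% rose and 4.87% fell. Here too, genes read by their brightest probe set stand beside shares of all probe sets. Csf3, the G-CSF gene, read 199 at day 1, 311 and 216 at day 2, 1988 and 414 at day 4 and 685 and 212 at day 5 with RANKL. In control cells it read 185 at day 1, 265 and 332 at day 2, 1325 and 1609 at day 3, 1636 and 1255 at day 4 and 2988 at day 5. Csf3 rose in control cells by 2.98 ± 0.52 (adjusted p = 0.00518), and its RANKL replicates of days 4 and 5 lay far apart.

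**Figure D4:**
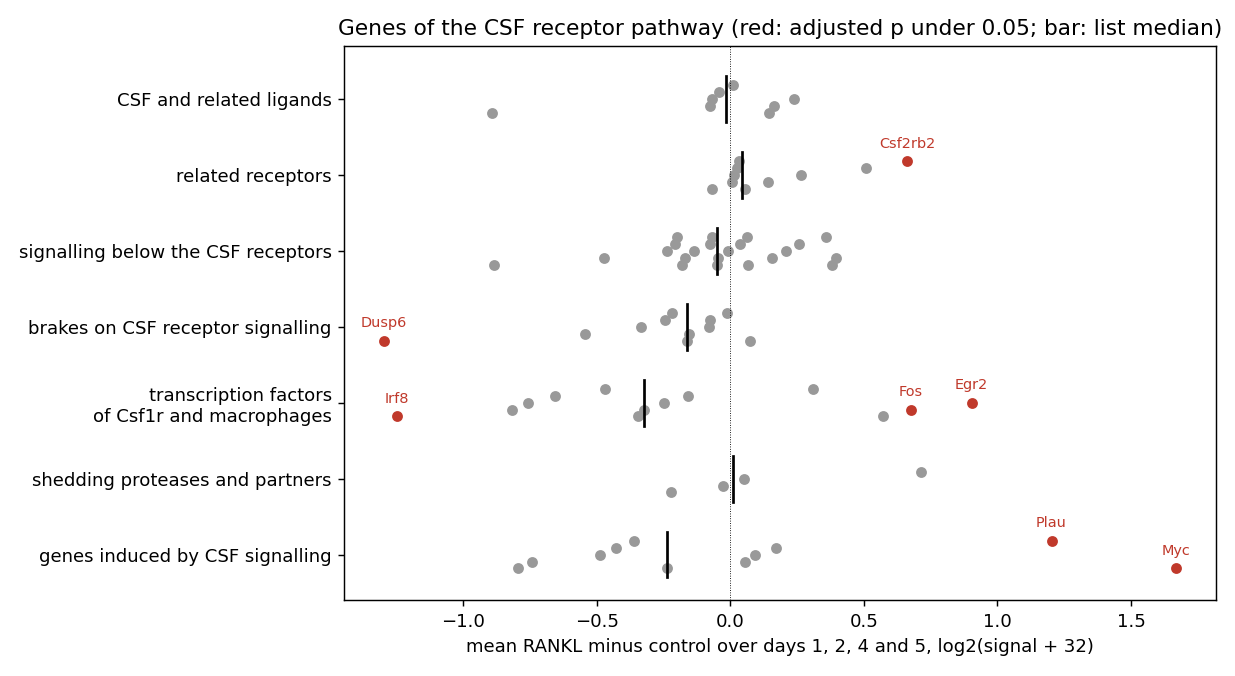
RANKL minus control difference over days 1, 2, 4 and 5 (log2(signal + 32)) of the 79 measured pathway genes, 1 point per gene in 7 lists, with red named points for adjusted p under 0.05 and a bar for each list's median. The calls are 5 genes higher and 2 lower with RANKL, beside 0.555% and 0.539% of all probe sets. Each gene is read by its brightest probe set, so the units differ.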

How the data were processed

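Biotin-labelled RNA from 15 samples was measured on Affymetrix arrays. The authors deposited 1 table of linear intensity values per probe set, made with MAS5 per the submitters' processing notes. Its version and a genome build are not given in the sources used here. The 2% trimmed mean was 500 on every array, so no further normalization was applied. The 66 manufacturer control probe sets were left out of the tests, and 12422 were tested with no filter as log2(signal + 32). Probe sets were named from the platform annotation, which gives 1 gene to 10833, several to 396 and none to 1193. MAS5 detection calls were not used, so the number of arrays and the yeast probe sets limit precision.

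One limma 3.58.1 model (R 4.3.3) with a mean per group was fitted to all arrays, with an intensity trend and 6 residual degrees of freedom, and gave 8 comparisons, tested two-sided. Groups with 1 array were assumed to vary like the others. On simulated data the fit over 4 days recovered 79% of changes of 1 and 98% of changes of 2 on the log2 scale, and at day 5 it recovered 16% and 66%. Same-numbered replicates deviated together at r of -0.17 to 0.12 over 15 pairs of groups, 1 of them over 0.1, so they were not treated as pairs.

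Named genes are all members, the 4 genes of each list with the largest absolute RANKL difference over the 4 days, and the 3 genes most correlated with each member. A gene with several probe sets was represented, outside the members, by the brightest. The members and lists were chosen with earlier results of these data known. Alternatives were quantile normalization, pseudocounts of 1 and 100, the upper 50% of probe sets by signal, no intensity trend, the beta-actin ratio as a covariate, a replicate block, other choices of days and leaving out each array.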

Additional observations from a re-analysis of the deposited data

Results flagged for a closer look

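Probe set 161832_r_at of Csf1r changed side between days. Both RANKL arrays were below both control arrays at day 2, at -0.40, and at day 4, at -0.76, and both were above the control array at day 5, at 0.96. The differences between these single days were not tested. The contrast of days 4 and 5 against days 1 and 2 was 0.69 ± 0.29 (adjusted p = 0.6, limma).

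Probe set 95807_at of Csf3r also changed side. RANKL arrays were all below control arrays at day 2, at -0.58, and all above them at day 4, at 0.64, and at day 5, at 0.47. These single days were not tested against each other, and the late minus early contrast gave 1.04 ± 0.28 (adjusted p = 0.386, limma). Such opposite orders on days 2, 4 and 5 were seen in 22% of all probe sets and in 2 of these 9.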

How the results depend on the processing

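Over 1589 recomputed member values from 72 results, 1505 kept their direction and side of the threshold or, uncalled, stayed within 1 SE, 46 lost a call, 15 gained one, 23 others moved further, and none turned a called direction. Leaving out each array in turn gave 11 to 427 probe sets over the 4 days (136 with all arrays, and a day drops out with its only array of a treatment) with 0 to 2 members, 2 to 147 at day 2 (106), 9 to 54 at day 4 (33) with 0 to 1 members, 52 to 355 at day 5 (114) with 0 to 1, 2 to 21 for late minus early (5), 1146 to 1972 for culture time in RANKL cells (1839) with 1 to 2, and 700 to 1410 in control cells (1348) with 1 to 4. In the upper 50% of probe sets, which hold 4 of the 9 members, the counts were 218 over the 4 days, 244 at day 5 and 12 for late minus early, with 0 members over the 4 days, at day 4 and at day 5, and 1 for culture time in control cells. With the beta-actin ratio as a covariate they were 64 over the 4 days, 34 at day 2, 12 at day 4, 1086 for culture time in RANKL cells and 169 in control cells, with 0 members over the 4 days and at day 4 and 1 for each culture time. Quantile normalization gave 1 member over the 4 days, 2 at day 5 and 1 for culture time in RANKL cells, and a pseudocount of 1 gave 0 at day 4. Without the intensity trend there were 68 probe sets at day 2, 3 for late minus early and 2 members at day 5. Days 2, 4 and 5 alone gave 426 probe sets. With day 2 alone as the early time there were 2 for late minus early and 703 with 1 member for control culture time. Leaving out both day 1 arrays, chosen after seeing the data, gave 432 over the 4 days, 2 for late minus early and 704 with 1 member. The replicate block gave 64 probe sets at day 5 and changed no other count of calls by over 1.5 times.

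Past the threshold were Mst1r over the 4 days in 10 of 23 alternatives (0.58 to 1.72) and at day 5 in 19 of 20 (1.97 to 4.20), Csf3r 95808_g_at over the 4 days in 21 of 23 and at day 4 in 16 of 21 (-2.42 to -1.05), Csf3r 95807_at with time in RANKL cells in 24 of 24, Mst1r likewise in 10 of 23, and in control cells Csf2ra in 19 of 24, 93198_at in 16 of 23 and 95808_g_at in 23 of 23. Signals near the yeast range, as for Mst1r and Csf2rb in many arrays, limit their fold changes.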

Other observations

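The RANKL replicates of day 4 parted at several genes of this system. Replicate 1 and replicate 2 read 312 and 25.7 for Csf2rb, 98.7 and 31.3 for 93198_at of Csf3r, 1988 and 414 for Csf3 and 1057 and 344 for Dusp6, with control arrays of that day at 223 and 237, 282 and 159.9, 1636 and 1255 and 1485 and 1616. For Mst1r the same RANKL arrays read 120.3 and 102, and the control arrays parted instead, at 95.0 and 18.7. These genes were picked after their values were seen.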
